A study of Caenorhabditis elegans with 12 samples.

Results

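Of 6432 chromatin regions listed for acetylation of lysine 5 of histone H4 (H4K5ac) in adult Caenorhabditis elegans, 788 did not touch any region listed for acetylation of lysine 8 (H4K8ac). These regions were taken as every H4K5ac region that overlaps no H4K8ac region by 1 bp or more on the same chromosome, and the other 5644 H4K5ac regions, which share at least 1 bp with an H4K8ac region, serve as the comparison. With the 6397 H4K8ac regions the series holds 12829 regions in all. Material came from whole adult animals of the wild-type strain Bristol N2, kept at 20 °C on the bacterium OP50. The 4 groups were H4K5ac immunoprecipitated chromatin (IP), H4K8ac IP, and an input of unprecipitated chromatin for each antibody, with 3 libraries in each group. Nothing in the labels separates sexes, ages or tissues, so every value is an average over all cells of the animal.

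Histone H4 carries several lysines in its flexible tail. Acetyltransferases add acetyl groups to them, deacetylases remove them, and bromodomain proteins bind them. Acetylated H4 tails are a common feature of active promoters and of open chromatin, and neighbouring lysines of the same tail are often acetylated together. In C. elegans the X chromosome is transcribed at a low level in much of the germ line and is bound by the dosage compensation complex in hermaphrodite somatic cells. The arms of the autosomes differ from their middles in repeats, in recombination and in heterochromatin marks.

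The regions were chosen from the measured lists, so what follows about their H4K5ac and H4K8ac levels describes the choice and carries no test. Each table ended at a lowest ratio of IP over input, at log2 values of -0.17 for H4K5ac and -0.31 for H4K8ac in the deposited counts before any scaling. Regions carry numbers that ran in genomic order in all 6426 neighbouring pairs of the H4K5ac table and all 6391 of the H4K8ac table. The numbers 2868 of H4K5ac regions and 2881 of H4K8ac regions were missing, so lack of a listed partner does not show that H4K8ac is absent. The tables give 1 estimated count per gene and library, which behaves as the reads within 2 kb of the gene's start and is repeated on each region named for that gene. Total counts ranged from 5460401 to 9156386 in the H4K5ac libraries and from 6418820 to 9136341 in the H4K8ac libraries.

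Regions without an H4K8ac region were short and held the start of their named gene less often than the others. Their median length was 1.8 kb (quartiles 1.2 and 2.8 kb, longest 25.8 kb), against 4.2 kb for the remaining H4K5ac regions (quartiles 2.4 and 7.8 kb, longest 65.6 kb). Of the 788, 473 were shorter than 2 kb, against 1175 of the 5644 others. A length of 10 kb or more was found for 17 (2.16%) of them and for 924 (16.4%) of the others. Together the 788 covered 1.97 Mb, and the remaining H4K5ac regions covered 34.01 Mb. A long region has more room to meet another, so length and membership are not independent measures.

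By the annotation in the deposited tables, 244 of the 788 (31%) were promoters around a transcription start site, against 2112 (37.4%) of the others. Introns held 209 (26.5%) of the regions without a partner and 1125 (19.9%) of the others. Intergenic sequence held 113 (14.3%) of them and 470 (8.33%) of the others. Exons held 126 (16%) and transcription ends 96 (12.2%), against 1073 (19%) and 864 (15.3%) of the remaining regions. The start of the named gene lay inside the region for 442 of the 788 and for 4513 of the 5644 others. It lay inside or within 2 kb for 668 (84.8%) and 5243 (92.9%). A short region has less room to hold a start or a coding gene, so these counts are not independent of length. No protein-coding gene of the RefSeq annotation was overlapped by 152 (19.3%) of the regions without a partner, against 397 (7.03%) of the others.

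**Figure D1:**
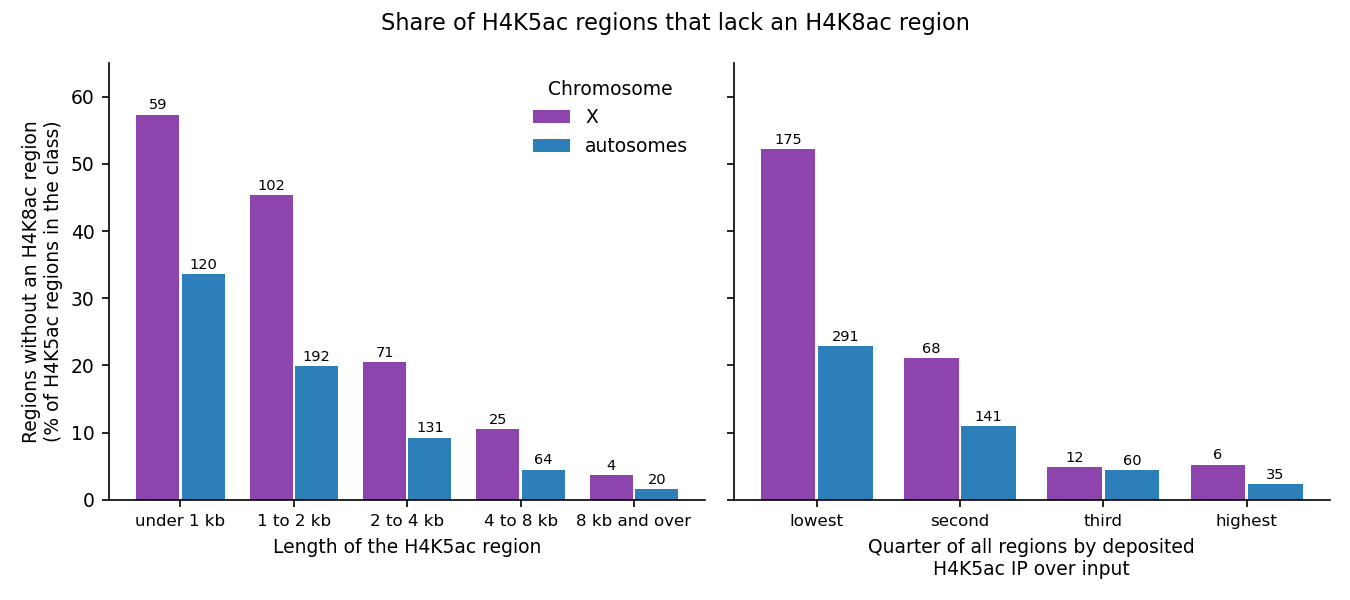
Bars give the percentage of H4K5ac regions that overlap no H4K8ac region, for the X chromosome (left bar of each pair) and the autosomes (right bar). Regions are grouped by length and into 4 equal classes ranked on the deposited ratio of H4K5ac IP over input of the named gene. The number above each bar counts the regions without a partner. The share falls from 57.3% on the X chromosome and 33.6% on autosomes for regions under 1 kb to 3.64% on the X chromosome and 1.61% on autosomes for regions of 8 kb and over.

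The X chromosome held 261 of the 788 regions (33.1%), against 760 of the remaining 5644 (13.5%). Seen the other way, 261 of 1021 X-linked H4K5ac regions (25.6%) lacked an H4K8ac region, against 527 of 5411 autosomal ones (9.74%). Among the autosomes the share lay between 8.69% on chromosome III and 11.9% on chromosome V. The share was higher on the X chromosome in every length class, with 45.3% of X-linked and 19.9% of autosomal regions of 1 to 2 kb, and 10.5% of X-linked and 4.47% of autosomal regions of 4 to 8 kb. It was also higher for each annotation, from intergenic regions (45.1% on the X chromosome, 14.6% on autosomes) to exons (17.9% on the X chromosome, 8.87% on autosomes).

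The share was higher where the named gene had a lower deposited ratio of H4K5ac IP over input. That ratio behaves as a count around the gene's start and not over the region. The start lay inside the region for 442 of the 788 regions and for 4513 of the 5644 others. In the lowest of 4 equal classes of H4K5ac regions by deposited ratio, at log2 values up to -0.01, 52.2% of X-linked and 22.9% of autosomal regions had no partner. In the second class, which ends at 0.18, the shares were 21.1% on the X chromosome and 11.0% on autosomes. Above that the chromosomes lay close together in the third class, with 12 of 249 X-linked regions (4.82%) and 60 of 1360 autosomal ones (4.41%). In the highest class, above 0.5, 6 of 115 X-linked regions (5.22%) and 35 of 1492 autosomal ones (2.35%) had no partner. In percentage points, the X-linked excess was therefore found mostly among regions whose named gene had a low ratio. In relative terms it was also present in the highest class (5.22% against 2.35%), which holds 6 X-linked members.

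**Figure D2:**
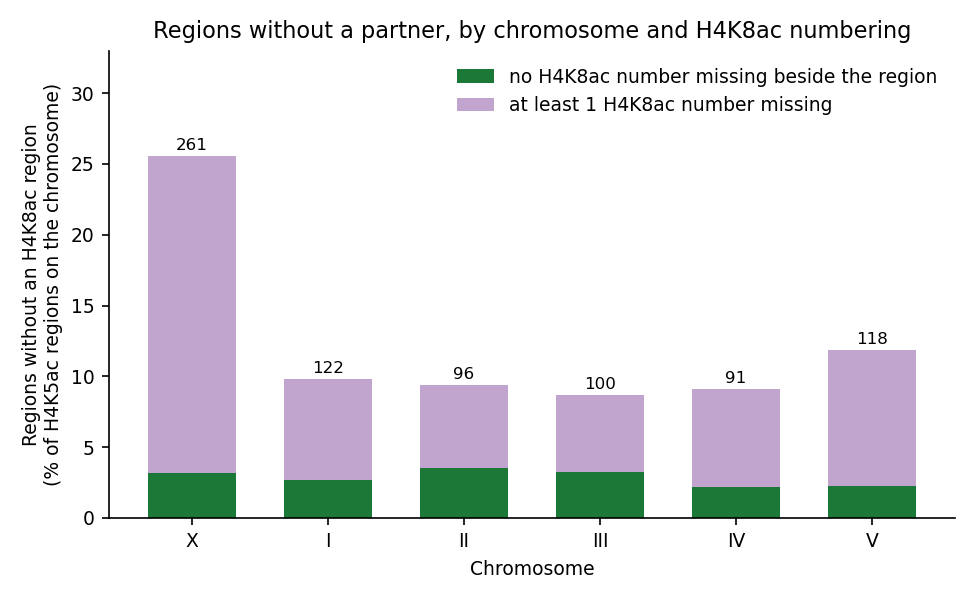
Stacked bars give the percentage of H4K5ac regions on each chromosome that overlap no H4K8ac region, with the count of such regions above the bar. The lower part of a bar holds regions beside which no H4K8ac region number is missing, and the upper part holds those with at least 1 number missing. The X chromosome stands above the autosomes in the upper part, and the lower part is of like height on all 6 chromosomes.

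Most of the 788 regions lay where the H4K8ac table has left out a numbered region. Between the listed H4K8ac regions on either side, at least 1 H4K8ac number was missing for 606 regions, with a median of 2 over all 788 and a highest value of 9. Over all intervals between neighbouring listed H4K8ac regions, none was missing in 588 of 911 X-linked (64.5%) and 4236 of 5480 autosomal ones (77.3%). An interval with a missing number may be wider and so hold more H4K5ac regions, which was not tested. An unlisted H4K8ac region may or may not lie on the H4K5ac region itself, since its position is not in the table. For 182 regions no number was missing, so that no numbered H4K8ac region lay there, listed or unlisted. Regions with a missing number made up 229 of the 1021 X-linked H4K5ac regions (22.4%) and 377 of the 5411 autosomal ones (6.97%). Regions with none missing made up 32 X-linked (3.13%) and 150 autosomal ones (2.77%). H4K8ac numbers were also listed less fully on the X chromosome in general, with 912 of 1573 there (58.0%) and 5485 of 7704 on autosomes (71.2%). What part that plays in the X-linked share was not tested.

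The 182 regions with no missing H4K8ac number were shorter and nearer to an H4K8ac region than the other 606. Their median length was 1.2 kb and their median gap to an H4K8ac region 1.3 kb, against 2.0 kb and 4.0 kb for the 606. Promoters made up 39 of them (21.4%), against 205 of the 606 (33.8%). On autosomes, 4 of the 150 such regions (2.67%) lay in the middle of the chromosome, between 33.3% and 66.7% of its annotated length. Over all autosomal regions without a partner this count was 108 of 527 (20.5%), and over the remaining autosomal H4K5ac regions 1586 of 4884 (32.5%). Autosomal regions with no missing H4K8ac number beside them thus lay mostly outside the middle of the chromosome.

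The distance from a region without a partner to the nearest listed H4K8ac region had a median of 2.6 kb, with quartiles of 1.0 and 7.8 kb. A gap of 1001 bp or less was found for 204 regions (25.9%), and 123 of those stood at exactly 801 bp. The smallest spacing between H4K5ac regions of the list was also 801 bp. Beyond 10 kb stood 154 regions (19.5%), 80 of them on the X chromosome. Regions with such short gaps were close to having a partner, and 187 regions (23.7%) sat within 1001 bp of an H4K5ac region that does have a partner.

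At the edge of the rule stood a region beside the non-coding RNA gene M02F4.11 (chromosome X, 3020201 to 3021599 in WBcel235, intergenic), with a gap of 1 bp. The next was the promoter of fgt-1, a facilitated glucose transporter gene that RefSeq names fdgt-1 (chromosome II, 1504001 to 1505599), with a gap of 201 bp. An exon region named for T20B6.1 followed (chromosome III, 2896001 to 2897399; 401 bp). Just outside the rule, regions named for T25D3.4 (chromosome II, 148801 to 150999), T17H7.7 (chromosome III, 755801 to 757799) and Y55F3BL.5 (chromosome IV, 798801 to 800999) each shared 199 bp with an H4K8ac region. Overlaps of 199 bp or less occurred in 7 of the 5644 regions with a partner, and overlaps of 999 bp or less in 373. The H4K5ac log2 folds over input were 0.12 ± 0.08 at M02F4.11, -0.16 ± 0.07 at fgt-1 and -0.23 ± 0.08 at T20B6.1 (SE), and 0.46, -0.21 and -0.05 at the 3 genes just outside. The fold at T25D3.4 was above those at all 3 regions just inside the rule, and the other 2 lay among them.

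Farthest from any H4K8ac region were an exon region of wdr-5.2, a paralog of the WDR5 gene of histone methyltransferase complexes (chromosome X, 14349801 to 14352199), at 108801 bp, and an intergenic region beside the 5S ribosomal RNA gene rrn-4.15 (chromosome V, 17425001 to 17429599), at 100601 bp. An intron region of K04G11.1 followed (chromosome X, 14335601 to 14337399; 94601 bp), and it overlaps the coding gene sel-7 as well. The H4K8ac table lacks 7 numbers around wdr-5.2 and K04G11.1 and 2 around rrn-4.15. At wdr-5.2 the H4K5ac libraries gave 211, 204 and 193 CPM (counts scaled to a common library total after TMM correction of the totals) in IPs and 210, 217 and 213 CPM in inputs. These ranges overlap, and the log2 fold was -0.07 ± 0.07 (SE, n = 3 per group).

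The 788 regions were named for 684 genes, of which 480 are protein-coding, 141 are non-coding RNA genes and 27 are piRNA genes by RefSeq type. H4K5ac was weaker at these genes than at the others. Their median log2 fold of H4K5ac IP over input was -0.26, with a range from -0.38 to 1.34, against 0.03 for the 4948 genes named only for the remaining regions and -0.02 for all 5632 genes. Each fold is relative to the typical listed gene, so a negative one means less H4K5ac than at that gene and not a loss below background. The lists end at a lowest ratio, and the lowest folds therefore crowd near -0.38.

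All 3 same-numbered pairs of an IP and an input library showed this order. The median log2 ratio of IP over input was -0.21, -0.28 and -0.24 in the pairs numbered 1 to 3 at the genes of regions without a partner, and 0.01, 0.04 and 0.05 at the other genes. Genes of the 788 regions took 9.77%, 9.86% and 10.1% of the counts in the H4K5ac IPs, against 11.6%, 12.3% and 12.3% in the inputs. Their median level was 152, 156 and 159 CPM in the IPs and 176, 188 and 188 CPM in the inputs. At the other genes that level was 177, 182 and 184 CPM in the IPs, and 182, 180 and 180 CPM in the inputs. The genes of regions without a partner thus lay below the others in 3 of 3 IPs and above them in 2 of 3 inputs. In whole animals, less acetylation in every cell and acetylation in fewer cells cannot be told apart.

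In edgeR's quasi-likelihood test with Benjamini-Hochberg adjustment over all 5632 genes (called at an adjusted p below 0.05), 53 of the 684 genes (7.75%) were higher in IP than in input, where 32.2% of all genes were. Lower were 461 (67.4%), where 29.5% of all genes were. The rule used these lists, so nothing is read from the counts. Scaled by total count instead, 38 were higher and 569 lower, with the median of all genes at -0.15. Of the 684 genes, 110 are also named for a region with a partner, and without them the remaining 574 genes had 28 higher, 417 lower and a median of -0.27. Among the 410 genes whose start window meets only regions without a partner, the counts were 17 higher and 305 lower, and the median was -0.28. The 172 genes of regions with no missing H4K8ac number had 29 higher and 96 lower, with a median of -0.21. By chromosome, the median was -0.28 at 226 X-linked genes and -0.24 at 458 autosomal genes of regions without a partner. At the other genes it was -0.06 for 693 X-linked and 0.05 for 4255 autosomal ones.

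**Figure D3:**
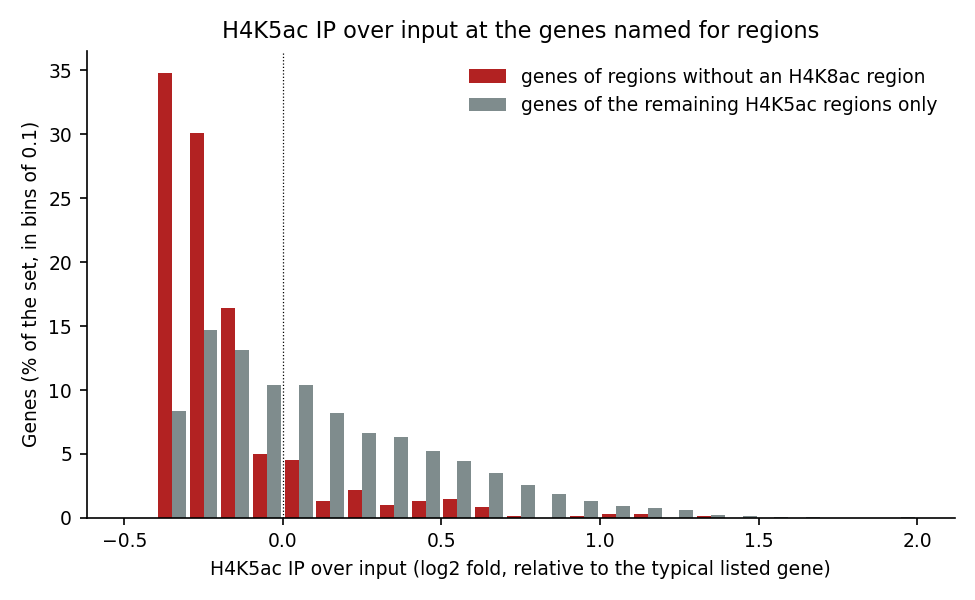
Histogram of the log2 fold of H4K5ac IP over input, in bins of 0.1, as the percentage of 684 genes named for regions without an H4K8ac region (left bar of each pair) and of 4948 genes named only for the remaining H4K5ac regions (right bar). Between -0.4 and -0.3 lie 34.8% of the genes of regions without a partner and 8.39% of the others.

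The highest H4K5ac folds among genes of these regions belonged to 10 genes, and at 8 of the 10 the gene's start is outside the region. The windows around those 8 starts meet a listed H4K8ac region, so their counts need not come from the region without a partner. The first was rbm-39, a gene for an RNA-binding splicing factor, through an exon region of 0.8 kb (chromosome IV, 1017001 to 1017799). It had 535, 369 and 311 CPM in H4K5ac IPs and 171, 156 and 153 CPM in inputs. All IPs lay above all inputs, and IP replicate 1 was the highest. The log2 fold was 1.34 ± 0.16 (SE, n = 3 per group), and 1.08 without IP replicate 1.

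After rbm-39 came the intersectin gene itsn-1, which acts in endocytosis (1.20 ± 0.14 on the log2 scale; intron region at chromosome IV, 17123201 to 17124599). The gene ekl-4, the worm DMAP1 homolog of a histone acetyltransferase complex, was at 1.19 ± 0.14 (transcription end region at chromosome I, 14475801 to 14476999), and the PHD finger gene phf-15 at 1.09 ± 0.12 (exon region at chromosome III, 3326401 to 3326999). The chaperonin subunit gene cct-3 was at 0.94 ± 0.14. The remaining 3 of the 8, mir-66, the salt-inducible kinase gene kin-29 and Y39A3CL.7, were each at 0.67.

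The other 2 of the 10 have their start inside a region without a partner, and the windows around those starts meet no listed H4K8ac region. At the small nucleolar RNA gene W06A7.12 (promoter region of 9.2 kb at chromosome V, 14828001 to 14837199), IPs had 546, 459 and 399 CPM and inputs 244, 222 and 223 CPM. All IPs were above all inputs, with a log2 fold of 1.03 ± 0.13. The region also overlaps ret-1, the worm reticulon gene of the endoplasmic reticulum, and lies 11601 bp from the nearest H4K8ac region, with 2 H4K8ac numbers missing around it. At rbm-12, another gene for an RNA-binding protein (intron region of 8.6 kb at chromosome I, 10118801 to 10127399), IPs had 424, 384 and 375 CPM and inputs 231, 245 and 219 CPM. Here too no IP overlapped an input, and the log2 fold was 0.76 ± 0.10.

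The 6 lowest called folds all stood at -0.38, and 5 of these genes are X-linked. For rsd-3, an epsin-like gene needed for the spread of RNA interference (promoter region at chromosome X, 11798001 to 11798799), IPs had 153, 153 and 152 CPM and inputs 176, 206 and 213 CPM. All IPs were below all inputs. The others are the non-coding RNA genes C54G7.11, M79.5, H36L18.5 and C16B8.9 on the X chromosome and 1 coding gene on chromosome IV, with SEs of 0.07 to 0.08. The M79.5 region lies over abl-1, the worm gene of the ABL tyrosine kinase.

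**Figure D4:**
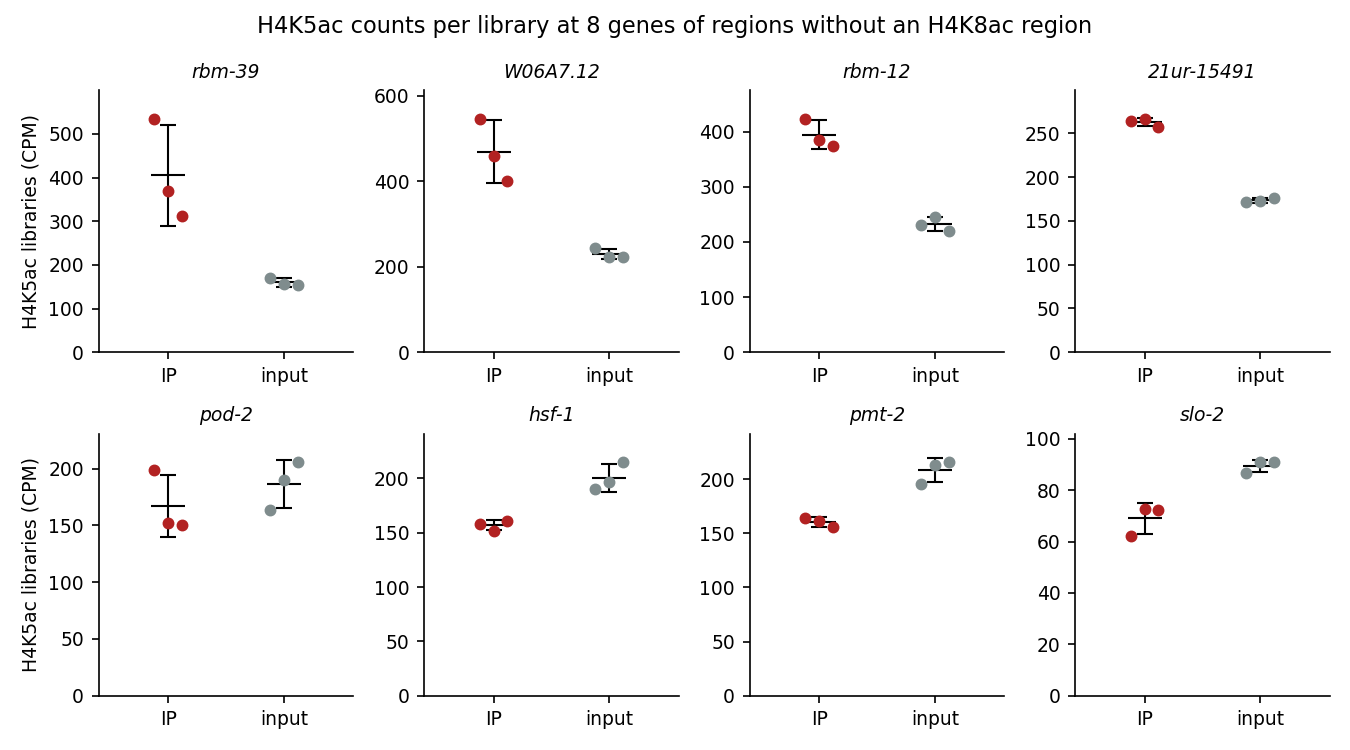
Points give CPM in each of the 3 H4K5ac IP libraries (left) and 3 H4K5ac input libraries (right) at 8 genes of regions without an H4K8ac region; horizontal lines are means and bars are the SD. The IPs lie above the inputs at rbm-39, W06A7.12, rbm-12 and 21ur-15491, and below them at hsf-1, pmt-2 and slo-2. At pod-2 the ranges of IPs and inputs overlap.

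Lipid genes lay under a few of the regions without a partner. Of 23 genes of fatty acid and triglyceride synthesis that any H4K5ac region overlapped, 3 lay under such a region and under no other region of either mark. They were the acetyl-CoA carboxylase gene pod-2, pmt-2 for a phosphoethanolamine methyltransferase of phosphatidylcholine synthesis, and the acyltransferase gene acl-1. The region of pod-2 covers 14.8 kb (chromosome II, 1140801 to 1155599), and 5 H4K8ac numbers are missing around it. Its IPs had 198, 152 and 150 CPM and its inputs 164, 190 and 206 CPM. These ranges overlap, and the log2 fold was -0.16 ± 0.11, and -0.31 without IP replicate 1. At pmt-2, with a promoter region (chromosome V, 4628401 to 4629199) and an intron region (4630201 to 4637399), IPs had 164, 162 and 156 CPM and inputs 195, 213 and 216 CPM. All IPs lay below all inputs at pmt-2, with a log2 fold of -0.37 ± 0.07. The gene acl-1 on the X chromosome was at -0.20 ± 0.07.

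Of 20 overlapped genes of lipolysis and beta-oxidation, 2 lay under a region without a partner, the peroxisomal genes acox-1.1 and dhs-28, and of 18 lipid storage and transport genes 1 did. That gene was lbp-1, for a fatty acid binding protein (promoter region at chromosome X, 3258801 to 3259599), where no H4K8ac number is missing. Its IPs had 73.5, 81.0 and 79.5 CPM, against 95, 96.8 and 93.8 CPM in its inputs. The groups did not overlap, and the log2 fold was -0.29 ± 0.07. For comparison, 687 of all 10647 protein-coding genes under an H4K5ac region (6.45%) lay under a region without a partner. That share was 196 of 1057 (18.5%) on the X chromosome and 491 of 9590 (5.12%) on autosomes.

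Some gene lists had no member under these regions, and at the 6.45% share of all protein-coding genes the small lists among them would hold few. The counts were 0 of 8 deacetylase and sirtuin genes, 0 of 20 deacetylase complex genes and 0 of 13 acetyltransferase and bromodomain genes under H4K5ac regions. They were likewise 0 of 77 ribosomal protein genes and 0 of 33 proteasome genes. One X-linked region (13325401 to 13327599) is named for the mitochondrial sirtuin gene sir-2.2, at -0.10 ± 0.08, but it overlaps F46G10.2 and not sir-2.2. The list of histone genes had 1 of 66 under a region without a partner, and that gene, his-24, encodes a linker histone and not a core histone. Intestinal genes (0 of 10) and hypodermal genes (0 of 13) had none, and the germline list had 1 of 24, mex-5, a gene for an RNA-binding protein of embryonic polarity.

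Genes of neurons and muscle appeared in small numbers. Beside this list and the neuron, muscle and stress lists below stands the share of all protein-coding genes, 6.45%. That share was 18.5% on the X chromosome and 5.12% on autosomes, and the lists were not split by chromosome. Ion channel and transmitter receptor genes had 8 of 63 (12.7%) under a region without a partner and under no other region of either mark. These were the potassium channel genes slo-1 and slo-2, the calcium channel gene egl-19, the dopamine receptor gene dop-4, the serotonin receptor genes ser-4 and ser-7, and the ligand-gated channel genes acr-12 and lgc-40. At slo-2 (3 regions between 11395801 and 11406399 on the X chromosome) IPs had 62.2, 72.7 and 72.4 CPM and inputs 86.7, 90.9 and 91.0 CPM. No IP reached an input at slo-2, and its log2 fold was -0.38 ± 0.08. The folds were -0.35 ± 0.07 at dop-4, -0.29 ± 0.08 at slo-1 and -0.23 ± 0.06 at acr-12.

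The neuron list had 1 of 15, the syntaxin gene unc-64 of synaptic vesicle release, at -0.36 ± 0.09, and unc-47, the vesicular GABA transporter gene, is named for a region that overlaps mua-3 instead. The muscle list had 3 of 19. The myosin light chain gene mlc-2 was at -0.31 ± 0.07 and the troponin I gene unc-27 at -0.27 ± 0.06, and the ryanodine receptor gene unc-68 was overlapped without being named. Among stress genes 2 of 17 lay under a region without a partner. At hsf-1, the heat shock transcription factor gene (promoter region at chromosome I, 11961001 to 11963399), IPs had 158, 152 and 161 CPM and inputs 190, 197 and 215 CPM. All IPs were below all inputs, with a log2 fold of -0.35 ± 0.07. The other was daf-12, a steroid hormone receptor gene, at -0.08 ± 0.07.

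Large gene families followed with shares between 1.89% and 13% of their overlapped genes. Nuclear hormone receptors had 13 of 106 (12.3%), chemoreceptors 12 of 100 (12.0%), neuropeptides 4 of 39 (10.3%), neuropeptide receptors 3 of 23 (13%) and C-type lectins 7 of 83 (8.43%). Collagens had 6 of 107 (5.61%), homeobox and bHLH factors 2 of 37 (5.41%), F-box, MATH and BATH genes 4 of 130 (3.08%), sperm genes 1 of 45 (2.22%) and detoxification enzymes 1 of 53 (1.89%). Of non-coding genes, tRNA genes had 37 of 390 (9.49%), piRNA genes 43 of 448 (9.6%), microRNA genes 7 of 143 (4.9%) and long intergenic RNA genes 3 of 67 (4.48%). Genes of these families that name a region without a partner include sre-42 (-0.36), col-160 (-0.36), the Hox gene ceh-13 (-0.36), clec-42 (-0.34), fbxa-61 (-0.34), nlp-69 (-0.34) and nhr-84 (-0.24). These examples come from the largest folds of their lists, and all are negative. No example is from the non-coding lists. There the largest fold in absolute size was above 0 for piRNA genes (21ur-15491, 0.60) and microRNA genes (mir-66, 0.67). It was below 0 for tRNA genes (C05E7.t3, -0.36) and long intergenic RNA genes (linc-159, -0.28). Folds above 0 occurred too, at 2 of 8 named nuclear hormone receptors, 1 of 10 chemoreceptors and 4 of 27 piRNA genes. They also occurred at 1 of 2 named microRNA genes and 1 of 5 long intergenic RNA genes. The coding families lie on both sides of the share of all protein-coding genes, 6.45% (18.5% on the X chromosome, 5.12% on autosomes). These lists were not split by chromosome. No share over all non-coding genes was taken, so the non-coding lists have no like share beside them. Genes of a family often lie in clusters.

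The 5 longest regions without a partner were well above the median of 1.8 kb. The longest, 25.8 kb on chromosome I (4001401 to 4027199), lies over unc-73, the Trio-like guanine nucleotide exchange factor gene of axon guidance, and lies among 4 missing H4K8ac numbers. Its IPs had 197, 192 and 171 CPM and its inputs 180, 213 and 217 CPM. These overlap, with a log2 fold of -0.12 ± 0.09, and -0.20 without input replicate 1. The next, 20.0 kb on chromosome V (14125201 to 14145199), lies over par-1, a kinase gene of cell polarity, and is named for the piRNA gene 21ur-15491. There IPs had 264, 267 and 257 CPM and inputs 172, 173 and 177 CPM. No IP overlapped an input, and the log2 fold was 0.60 ± 0.06. The regions of let-805, the myotactin gene of muscle attachment (18.2 kb; -0.33 ± 0.07), miz-1 (16 kb; -0.30 ± 0.09) and C06E8.7, over the kinase gene prk-1 (15.2 kb; -0.08 ± 0.07), followed.

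Of the 788 regions, 392 stood alone between H4K5ac regions that have a partner, and the others came in runs with no such region between them. Runs of 3 or more numbered 54, held 190 regions, and lay on the X chromosome in 29 cases. The longest had 7 regions over 102.2 kb of the X chromosome (16036801 to 16138999), named for ZK1073.1, which RefSeq names ndrr-2, and B0395.3, and all 7 lay in 1 interval with 9 missing H4K8ac numbers. A run of 6 regions over 115.4 kb near the left end of the X chromosome (226201 to 341599) began at the pseudogenes AC8.7 and AC8.12 (0.05 and 0.01 on the log2 scale) and ran to M02E1.1 (-0.35) and C04E7.3 (-0.08). Another of 6 regions over 79.8 kb near the left end of chromosome V (18001 to 97799) took in egl-8, the phospholipase C beta gene of synaptic signalling (-0.31 ± 0.08). The run ended at 21ur-15058, the only gene of these 3 runs whose called fold was above 0 (0.47 ± 0.07).

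A gene can be listed for H4K8ac through a region other than the one without a partner, and 109 of the 684 genes were. Their median log2 fold of H4K8ac IP over input was -0.10, against -0.04 for all 5671 genes of that table. In edgeR's test 20 of the 109 (18.3%) were higher, where 31.2% of all genes were, and 45 (41.3%) were lower, where 33.6% were. The rule used this list too, so nothing is read from these counts. Scaled by total count instead, 17 of the 109 were higher and 62 lower for H4K8ac. Of the 109 genes, 17 were higher for both marks and 30 lower for both, and 0 were called in opposite directions. The same counts were not taken over all genes listed for both marks. They therefore do not show an agreement particular to the 109. At phf-15, the highest of the 109, H4K8ac was at 0.80 ± 0.10 beside 1.09 ± 0.12 for H4K5ac, and at sir-2.2 it was at -0.30 ± 0.05 beside -0.10 ± 0.08.

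**Figure D5:**
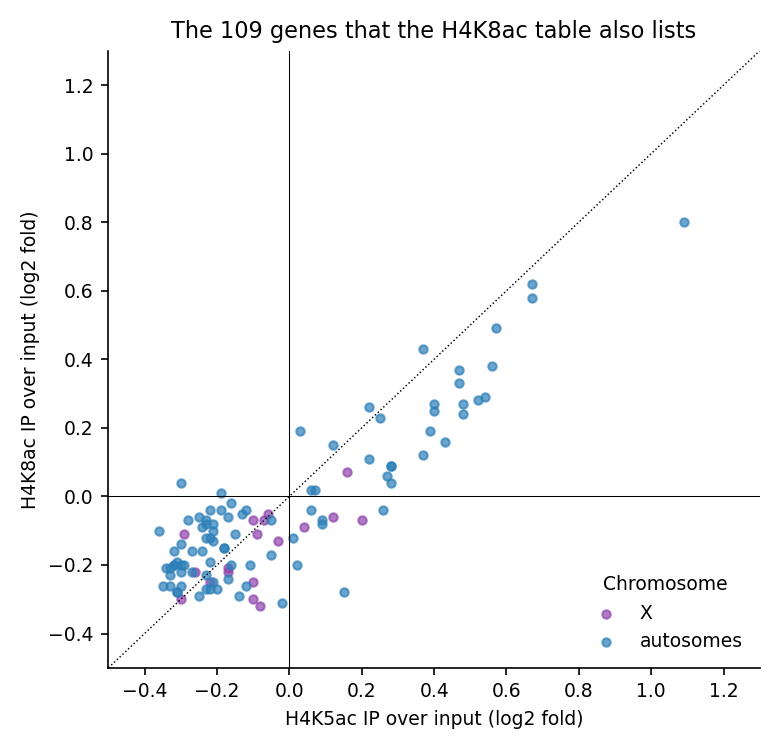
Each point is 1 of the 109 genes named for a region without an H4K8ac region that the H4K8ac table also lists, placed by its log2 fold of H4K5ac IP over input (horizontal) and of H4K8ac IP over input (vertical), with X-linked and autosomal genes in different colours. The dotted line marks equal folds. The highest point, phf-15, lies at 1.09 and 0.80, and most points lie near the line.

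The difference between the marks, each over its own input, was called in edgeR's test (adjusted p below 0.05) at 0 of the 109 genes, as at 0 of all 3750 genes in both tables (0.0% called in either direction). Its median was 0.00, with a range from -0.35 to 0.41. At an unadjusted p under 0.05, 15 of the 109 (13.8%) passed, 10 with the higher fold for H4K5ac and 5 with the lower, where 549 of 3750 (14.6%) did. DESeq2 called 41 of the 3750 genes (1.09%) and 1 of the 109, swsn-3, a gene for a subunit of the SWI/SNF chromatin remodeller. H4K5ac had 140, 119 and 124 CPM in IPs and 106, 123 and 116 CPM in inputs at swsn-3, and H4K8ac had 105, 88.3 and 104.3 CPM in IPs and 111, 126 and 124 CPM in inputs. H4K5ac IPs and inputs overlapped there, and all H4K8ac IPs lay below all inputs. The difference at swsn-3 was 0.41 ± 0.11 on the log2 scale, and the gene was chosen after its values were seen. Both lists entered the rule, so these counts describe the choice as well.

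The inputs, which saw no antibody, were also compared with each other. Both lists end at a ratio of IP over input, so input counts entered the rule as well and this comparison is not independent of it. The difference of H4K5ac input over H4K8ac input had a median of 0.03 over the 109 genes and 0.00 over all 3750, and ranged from -0.15 to 0.17 at the 109. In edgeR's test 0 of the 109 passed, and 0 of 3750 (0.0%). At an unadjusted p under 0.05, 1 of the 109 (0.917%) and 180 of 3750 (4.8%) did, and DESeq2 called 0 of 3750 after adjustment (0.0%).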

How the data were processed

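Bowtie 1.1.2 and MACS2 2.1.0 stand in the submitters' processing notes beside Trimmomatic 0.33 and bcl2fastq 2.17; 2 builds are listed, hg38 and WBcel235. Coordinates are given in WBcel235, since 99.98% of matched lines lay on their gene's chromosome there. The authors deposited, for each mark, a region list and 1 estimated count per gene and library, not normalized. No source used here states whether regions were called per sample or how reads were counted. The members and gene lists were chosen with earlier results of these data known. Named genes were taken by rules of rank: highest and lowest folds, longest, nearest and farthest regions, up to 4 genes a list, longest runs. The 8 genes drawn by library and swsn-3 were chosen after values were seen.

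Counts were rounded and tested with edgeR 4.0.16 (R 4.3.3; quasi-likelihood, TMM scaling, Benjamini-Hochberg, threshold 0.05), for each mark's table alone and for the 3750 common genes in all 12 libraries. The low-count filter removed 0 genes. DESeq2 1.42.0, other scalings, a replicate block and leaving out libraries were alternatives. Lengths count both ends. Gene names were matched to RefSeq (WBcel235): 5615 of 5632 H4K5ac and 5649 of 5671 H4K8ac genes matched. The labels number the replicates without naming separate cultures, so p-values reflect the spread between libraries alone, possibly technical spread. Deviations from group means correlated by 0.278, 0.11 and 0.226 for same-numbered H4K5ac IPs and inputs, and by -0.239, -0.101 and 0.0664 for H4K8ac. Differently numbered libraries were not compared, so these values do not show whether the numbers pair IPs with inputs. On simulated counts the H4K5ac test recovered 98% of 100 log2 changes of 0.5 among 5632 genes, with 6 false calls. The test of the difference recovered 91% of 100 among 3750 genes, with 9 false calls. Each simulated set also held 100 changes of 1, which makes the adjusted threshold easier to pass. All other genes were drawn with equal means in all groups. These percentages therefore need not hold for the real counts. At the 684 genes the median H4K5ac log2 fold was -0.26, and at the 109 genes the difference ranged from -0.35 to 0.41. Recovery at log2 sizes below 0.5 was not tested.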

Additional observations from a re-analysis of the deposited data

How the results depend on the processing

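Counting a gap of up to 1 kb as shared, or asking for 10% or 50% coverage, left 652, 794 and 950 regions; at 50% the median length was 2.0 kb. Keeping H4K5ac regions whose named gene was over the median ratio left 113, with 15.9% on the X chromosome, 17.7% at promoters and a median of 1.6 kb. Fewer H4K5ac regions over that median are X-linked to begin with. They were 249 of 1609 in the third class by ratio and 115 of 1607 in the highest, against 1021 of all 6432. Keeping H4K8ac regions whose named gene was over the median ratio gave 3031, with 24.8% on the X chromosome and 2.6 kb. Chosen after seeing the data, regions with no H4K8ac number missing were 182, with 17.6% on the X chromosome, 21.4% at promoters and 1.2 kb. The number of regions and the percentage of them on the X chromosome thus changed with cuts on the deposited ratio and with the H4K8ac numbers.

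For H4K5ac IP over input at the 684 genes, against 53 higher and 461 lower, the counts were 28 higher for genes of such regions alone and 14 higher and 122 lower with no other gene in the window. For genes picked after seeing the data they were 19 higher with the start inside, 29 and 96 with no number missing, and 17 and 305 with no shared region in the window; fewer genes enter each. The replicate block gave 55 and 486 for H4K5ac and called fgt-1 (-0.16), fbxa-139 (-0.23) and nhr-105 (-0.24), which are not called without it; it changed no other call of a named gene. With total-count scaling the median over all genes was -0.15 (1349 higher and 2627 lower, against 1811 and 1659) and that of the 684 was -0.40, and for H4K8ac the median over all genes was -0.10 (1454 and 2497, against 1768 and 1908). The median of the 684 genes minus that of the others was -0.29 under each scaling. A change of scaling moves all folds by nearly the same amount, so this value could hardly differ between scalings. Leaving out 1 library gave 44 to 56 higher and 322 to 502 lower for H4K5ac, 16 to 26 and 34 to 54 for H4K8ac, and a median difference of -0.32 to -0.27. For the difference between marks it gave 0 to 2 higher and 0 to 1 lower, against 0, with the highest counts without H4K5ac IP replicate 3; DESeq2 gave 1 higher. For the inputs it gave 0 throughout. Of the fits of single named genes, 841 kept their direction and their side of the threshold, called or not, 27 gained a call, 32 lost one and 0 reversed. Leaving out 1 library ended the call of acl-1 (without IP replicate 2 or 3, or input replicate 2; -0.19, -0.18 and -0.14), nhr-84 (IP replicate 2, or input replicate 2 or 3; -0.17, -0.22 and -0.22), miz-1 (input replicate 2 or 3; -0.24 and -0.27), T20B6.1 (input replicate 1; -0.16), ZK1073.1 (input replicate 2; -0.23), rrn-4.15 (IP replicate 2; -0.22) and unc-47 (input replicate 3; -0.24).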
